A study of Mus musculus with 28 samples.

Results

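Liver RNA was compared between WY-14643 (WY) and vehicle in mice heterozygous for Sirt6 (HZ), which make up 14 of the 28 libraries of the study. All 14 came from the livers of 129svj animals aged 11 to 13 months, labelled as heterozygotes. By gavage, 7 received 0.5% carboxymethylcellulose (CMC) and 7 received WY at 50 mg/kg in the same vehicle, and each liver was taken 12 h later. Wild type (WT) animals of the same strain and age, 7 with vehicle and 7 with WY, were compared with them for the difference in response and were fitted together with them. The labels name each animal by a number, so the libraries of a group are separate animals; neither the sex nor the Sirt6 allele nor the time of day is stated in the labels.

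WY-14643 activates PPARα, a nuclear receptor that pairs with RXR and responds in hepatocytes to fatty acids. In rodent liver it controls genes of peroxisomal and mitochondrial fatty acid oxidation, fatty acid transport and ketone body production, and sustained activation enlarges the peroxisome compartment. The product of Sirt6 sits on chromatin and uses NAD to remove acyl groups from histones.

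Each HZ vehicle library held 16769148 to 20020078 counts assigned to genes and each HZ WY library 16777463 to 19940067. Gene levels are in CPM, the count divided by the normalized library total, and changes as log2 fold change ± SE with an adjusted p from edgeR's quasi-likelihood test over 12607 genes; a gene is said to rise, fall or change where the adjusted p is below 0.05, and p-values measure the spread between separate animals. The libraries carried the markers of liver: the 21 hepatocyte identity genes summed to 108735 to 145692 CPM in vehicle and 71423 to 110404 CPM in WY livers. The summed level of the T and NK cell markers was 1.53 to 6.97 CPM in vehicle and 1.67 to 6.00 CPM in WY livers. The exocrine pancreas genes summed to 15.1 to 26.8 and 12.1 to 21.9 CPM. Among them Prss1, Prss2, Cela3b and Cpa1 had no count in any of the 14 libraries. The Y-linked Ddx3y was at 114 to 153 CPM in vehicle and 88.9 to 117 CPM in WY livers, and Xist at 0.118 to 0.888 and 0.0980 to 0.752 CPM. In all 28 libraries the first principal component, with 46.4% of the variance, separated WY from vehicle. Vehicle animals 30 and 38 and WY animals 14, 15 and 21 stood apart on the second (9.8%), and most results that turn on them are given with and without them. The vehicle and WY libraries were deposited in separate tables, so treatment and any other difference between the tables cannot be told apart. Reads in no gene made up 7.85 to 9.08% in HZ vehicle and 6.55 to 7.82% in HZ WY libraries; the part of this difference in the results was not tested.

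A large share of liver transcripts differed in level between WY and vehicle in HZ animals, in both directions. Of 12607 genes tested, 3695 (29.3%) were higher and 3329 (26.4%) were lower at an adjusted p below 0.05 in edgeR. At least a 2-fold difference was reached by 418 of the higher genes (3.32% of those tested) and by 391 of the lower genes (3.1%). In 1588 genes (12.6%) each of the 7 WY livers lay above each of the 7 vehicle livers, and in 1247 (9.89%) each lay below. These percentages are the background for the counts of each gene group below, and the median log2 fold change over all genes was 0.01. Transcript length moved with the change: genes in the lowest 25% by length had a median of 0.15 with 40.3% higher, and those in the top 25% a median of -0.16 with 16.9% higher. With a trend on length removed from each library, 3431 genes were higher and 3312 lower.

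Sirt6 (GRCm38 chromosome 10, 81621785 to 81627797, minus strand) was sparsely counted, with 15 to 42 reads per HZ library. It stood at 0.882 to 1.38 CPM (median 1.29) in HZ vehicle and at 1.29 to 2.29 CPM (median 1.47) in HZ WY livers, and 5 of the 7 WY livers lay above each vehicle liver. The WY change in HZ was 0.40 ± 0.18 in edgeR (adjusted p = 0.0572), and passed the threshold of 0.05 with the 14 HZ libraries alone (0.42, adjusted p = 0.0494), without WY animal 14 (0.44, adjusted p = 0.0411) and without WY animal 2 (0.44, adjusted p = 0.0439). The two-sided exact permutation test of mean log2 CPM gave 0.36 with p = 0.0134. Each HZ vehicle liver lay below each WT vehicle liver, and 6 of 7 HZ WY livers lay below each WT WY liver. The differences in mean log2 CPM were -0.89 (exact permutation p = 0.000583) and -0.99 (exact permutation p = 0.00117).

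The 12 textbook targets of PPARα were all higher with WY in HZ liver, 10 of them at least 2-fold, with a median log2 fold change of 2.12. Groups did not overlap for 11 of the 12. Pdk4, a kinase that shuts the pyruvate dehydrogenase complex and so spares glucose (GRCm38 chromosome 6, 5483351 to 5496309, minus strand), stood at 5.82 to 18.6 CPM (median 8.21) in vehicle and 136 to 1195 CPM (median 315) in WY livers. Each WY liver lay above each vehicle liver. The change was 5.61 ± 0.65 (adjusted p = 7.97e-08), and 4.87 without the 5 libraries that stood apart. Acot1, a cytosolic acyl-CoA thioesterase (GRCm38 chromosome 12, 84009490 to 84018371, plus strand), stood at 24.3 to 335 CPM (median 92.7) in vehicle and 938 to 1512 CPM (median 1081) in WY livers, a change of 3.16 ± 0.40. Plin2, the coat protein of lipid droplets (GRCm38 chromosome 4, 86648386 to 86670060, minus strand), stood at 210.5 to 833 CPM (median 325) and 2718 to 4108 CPM (median 3112), a change of 3.06 ± 0.29. The groups did not overlap in either gene.

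Targets that act in the peroxisome and the endoplasmic reticulum rose as well. Pex11a, a membrane factor of peroxisome division (GRCm38 chromosome 7, 79735957 to 79743131, minus strand), stood at 39 to 129.5 CPM (median 59.4) in vehicle and 318 to 452 CPM (median 362) in WY livers (change 2.54 ± 0.26). Ehhadh, the bifunctional enzyme of peroxisomal β-oxidation (GRCm38 chromosome 16, 21761287 to 21787807, minus strand), stood at 1669 to 8754 CPM (median 4266) and 21573 to 23826 CPM (median 22050.2) (change 2.30 ± 0.26). Both separated the treatments in each animal. The fatty acid ω-hydroxylase Cyp4a14 (GRCm38 chromosome 4, 115486200 to 115496142, minus strand) stood at 626 to 6858 CPM (median 3112) under vehicle and 12375 to 13239 CPM (median 13109) under WY, with animal 38 lowest under vehicle, and its change was 1.94 ± 0.31. Cyp4a10 changed by 1.60 ± 0.25. The Cyp4a genes are close copies, and alignments that were not unique were left out of the counts, so the levels of these genes are uncertain.

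Secreted targets rose too. Fgf21, a hepatic hormone of fasting (GRCm38 chromosome 7, 45613886 to 45615490, minus strand), stood at 4.46 to 13.7 CPM (median 9.65) in vehicle and 13.8 to 52.5 CPM (median 23) in WY livers, without overlap, and changed by 1.41 ± 0.36 (adjusted p = 0.00172). Angptl4, a secreted inhibitor of lipoprotein lipase (GRCm38 chromosome 17, 33773750 to 33781830, minus strand), stood at 170.3 to 262 CPM (median 186) in vehicle and 246 to 336 CPM (median 312) in WY livers. Its groups overlapped, since vehicle animal 71 was above 2 of the WY livers, and the change was 0.61 ± 0.14 (adjusted p = 0.000413). The pantetheinase Vnn1 rose by 2.43 ± 0.44, and by 3.16 without vehicle animal 34, its highest vehicle liver.

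**Figure D1:**
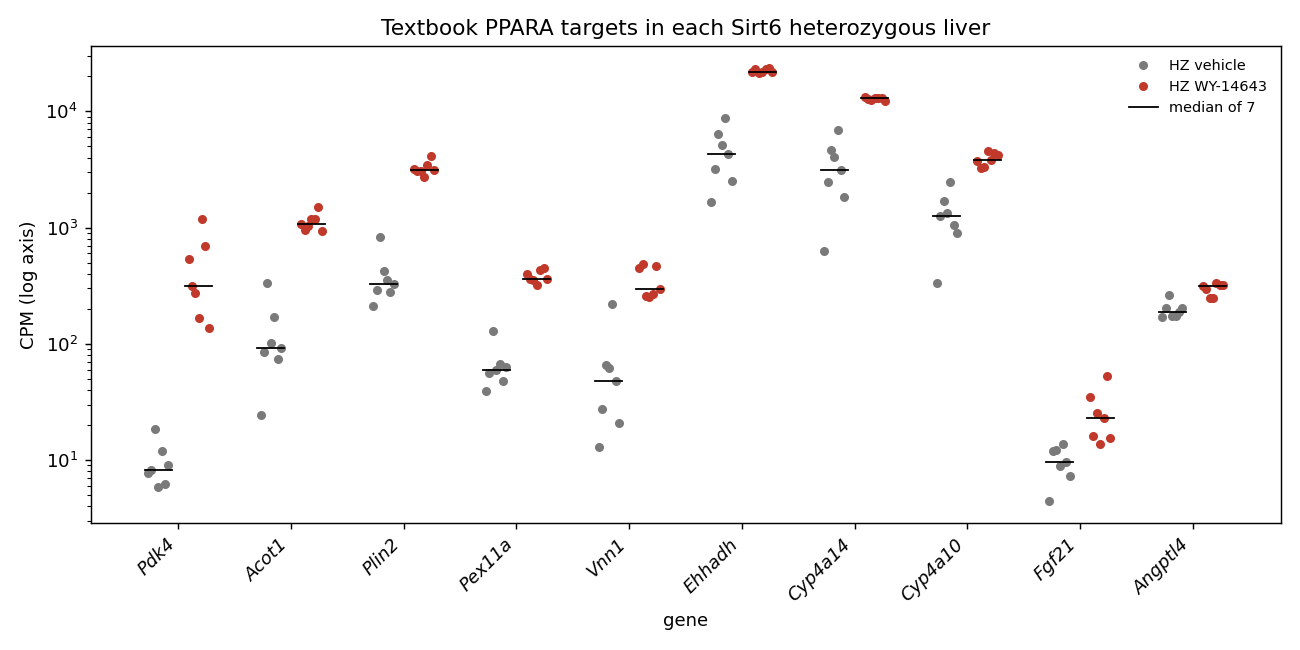
CPM (log axis) of 10 of the textbook PPARα targets in each HZ liver, 7 with vehicle (grey) and 7 with WY-14643 (red), with black bars for the medians. In each gene plotted but Angptl4, every WY liver lies above each vehicle liver, and Pdk4 ranges over 136 to 1195 CPM among the WY livers.

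PPARα with RXR binds a direct repeat of AGGTCA with 1 base between the copies. The 250 bases before the start of RefSeq genes (GRCm38.p6) were searched on both strands for AGGTCA, any base, AGGTCA, and the 12 fixed letters were compared. A match with at most 2 mismatches was found for 3.36% of the 10088 tested genes that have a promoter entry, for 3.1% of the genes at least 2-fold higher (323 with an entry) and for 2.5% of those at least 2-fold lower (280 with an entry). With at most 3 mismatches the shares were 22.1%, 26.6% and 26.4%. The shares of genes that rose and of genes that fell differ little, and sites further away were not searched. The best matches among the named genes that rose most were those of Plin2, Acot2, Cidec and Lamb3, and Upp2, which fell, held a match of the same grade as the last 3, as did Rian, which also fell. They are shown to let the repeat be read beside the values, 5′ to 3′ on the gene's strand, with the match in capitals; in Plin2 and Cidec it lies on the opposite strand.
Plin2: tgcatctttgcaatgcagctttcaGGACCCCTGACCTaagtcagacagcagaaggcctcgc
Acot2: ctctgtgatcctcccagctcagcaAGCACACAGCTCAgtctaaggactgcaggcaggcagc
Cidec: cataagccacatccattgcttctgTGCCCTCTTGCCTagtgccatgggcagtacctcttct
Lamb3: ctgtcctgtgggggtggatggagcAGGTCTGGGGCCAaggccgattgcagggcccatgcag
Upp2: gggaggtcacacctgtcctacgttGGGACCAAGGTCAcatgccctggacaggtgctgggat
The windows are chr4:86670248-86670308 (minus strand) for Plin2 (2 mismatches), chr12:83987779-83987839 (plus strand) for Acot2, chr6:113435938-113435998 (minus strand) for Cidec, chr1:193302160-193302220 (plus strand) for Lamb3 and chr2:58754993-58755053 (plus strand) for Upp2 (3 mismatches each). Each lies before a transcript start in RefSeq. For Lamb3 and Upp2 that start lies inside the span given for the gene, which is from GENCODE, and so do their windows. A match describes letters and does not show binding.

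Peroxisomal fatty acid oxidation, which shortens very long chain, branched and dicarboxylic fatty acids, was higher across most of its enzymes. Of 32 tested genes 23 rose, 15 of them at least 2-fold, 6 fell and 3 did not pass, and the list median was 0.87. The thiolase Acaa1b stood at 818 to 2612 CPM (median 1921) in vehicle and 7603 to 9336 CPM (median 8138) in WY livers, and changed by 2.05 ± 0.18. Its close copy Acaa1a stood lower, at 172 to 229 CPM (median 200.1) and 465 to 579 CPM (median 511), and changed by 1.36 ± 0.07 with little spread in either group. Neither gene's groups overlapped. Alignments that were not unique were left out of the counts, so the levels of these copies are uncertain. The carnitine acyltransferases that release shortened products, Crat (2.52 ± 0.31) and Crot (1.13 ± 0.17), rose, as did the membrane transporter Abcd3 (1.36 ± 0.18) and the multifunctional enzyme Hsd17b4 (0.73 ± 0.08). Peroxisomal thioesterases were among the steepest: Acot3 stood at 1.33 to 33.9 CPM (median 7.94) and 117 to 211 CPM (median 182) (change 4.08 ± 0.58), Acot4 changed by 2.71 ± 0.32 and Acot8 by 1.72 ± 0.13. Without vehicle animal 71 the Acot3 change was 4.80.

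The peroxisomal genes that fell include Phyh, Cat, Acox3, Scp2 and Pecr. Phyh, the first enzyme of phytanic acid α-oxidation (GRCm38 chromosome 2, 4919019 to 4938730, plus strand), stood at 1921 to 2685 CPM (median 2426) in vehicle and 1429 to 1848 CPM (median 1723) in WY livers, without overlap, and it fell by 0.50 ± 0.08. Acox2, the oxidase of branched fatty acids and bile acid intermediates, was at 0.03 ± 0.08 (adjusted p = 0.769). Catalase, which removes the hydrogen peroxide that the oxidases make, stood at 3155 to 4661 CPM (median 3649) and 3040.3 to 3537 CPM (median 3241); its value was -0.21 ± 0.08 (adjusted p = 0.0252), which did not pass without vehicle animals 36 or 71 or WY animals 14 or 15, left out in turn (highest adjusted p = 0.0901), or with the HZ libraries alone (0.0965).

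Peroxins, the proteins that build and divide peroxisomes, rose with the enzymes. Of 16 tested 13 were higher and 1 lower, with a median of 0.47, and 10 did not overlap between groups. Among the larger changes besides Pex11a were those of Pex19, the import receptor of membrane proteins (1.34 ± 0.12), Pex16 (1.29 ± 0.10) and Pex14 (1.16 ± 0.10). Pex19 stood at 96.8 to 162 CPM (median 122) in vehicle and 298 to 355 CPM (median 301) in WY livers, which did not overlap. The lower gene was Pex7, the receptor for the second type of targeting signal (-0.22 ± 0.08, adjusted p = 0.0216), and it lost this call without vehicle animal 36 (adjusted p = 0.0718), vehicle animal 39 (0.0570) or WY animal 5 (0.0564), without the 5 libraries that stood apart (0.0855) and with the HZ libraries alone (0.0618).

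Most genes of mitochondrial fatty acid oxidation rose. Of 27 tested genes 21 were higher and 0 fell in edgeR (1 at an unadjusted p under 0.05, 1 in DESeq2 and 2 in limma voom). The median was 0.84, and 20 did not overlap. Cpt1a, which couples long chain fatty acids to carnitine in liver, stood at 455 to 671 CPM (median 481) in vehicle and 495 to 653 CPM (median 566) in WY livers and was at 0.14 ± 0.08 (adjusted p = 0.181). It passed with limma voom (0.20, adjusted p = 0.0340) and without vehicle animal 30 (0.19, adjusted p = 0.0484) or 34 (0.20, adjusted p = 0.0334). Other genes of carnitine supply and the shuttle rose: Slc22a5, which brings carnitine into the cell, stood at 24 to 69.3 CPM (median 32) and 158 to 272 CPM (median 229) (change 2.48 ± 0.24). The acylcarnitine carrier Slc25a20 changed by 1.46 ± 0.14 and Cpt2, which returns the acyl group to CoA, by 1.43 ± 0.15. Within the β-oxidation spiral the changes were smaller: Acadvl (0.66 ± 0.08), Acadl (0.92 ± 0.08) and Acadm (0.69 ± 0.09) for the acyl-CoA dehydrogenases of falling chain length, Hadha (0.87 ± 0.09) for the trifunctional protein and Eci1 (1.04 ± 0.08) for an isomerase of unsaturated chains. The matrix thioesterase Acot2 (GRCm38 chromosome 12, 83987861 to 83993873, plus strand) was the steepest: it stood at 5.69 to 82.3 CPM (median 15.3) under vehicle and 355 to 686 CPM (median 401) under WY, and changed by 4.12 ± 0.50, or by 4.76 without vehicle animal 71. Acot1 to Acot4 are close copies, and alignments that were not unique were left out of the counts, so their levels are uncertain.

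**Figure D2:**
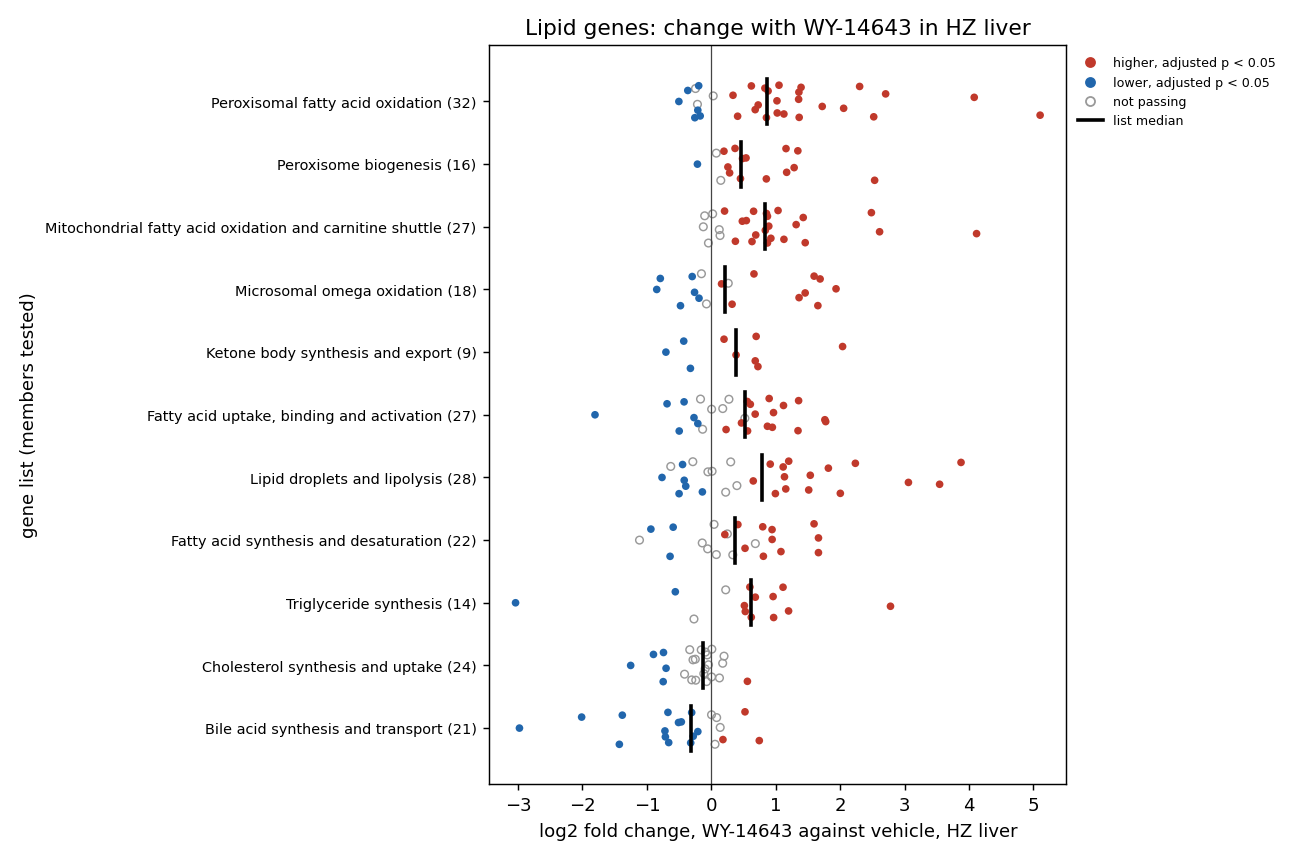
Log2 fold change with WY-14643 in HZ liver of each tested member of 11 lipid gene lists (members tested in brackets), filled where the adjusted p is below 0.05, with a black bar at the list median. Peroxisome, mitochondria and droplet lists have medians of 0.47 to 0.87, and bile acid genes a median of -0.32.

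Microsomal ω-oxidation split by gene. Of 18 tested genes 9 rose and 6 fell, with a median of 0.21. The genes that rose include, besides Cyp4a10 and Cyp4a14, the fatty aldehyde dehydrogenase Aldh3a2, which stood at 311 to 774 CPM (median 499.8) in vehicle and 1207 to 2038 CPM (median 1654) in WY livers (change 1.65 ± 0.20), and the electron donor of the P450s, Por (0.66 ± 0.14). The genes that fell include Cyp4f14, a hydroxylase of leukotrienes and fatty acids, at 190.2 to 311 CPM (median 284) and 113 to 182 CPM (median 141) (change -0.85 ± 0.11), and the alcohol dehydrogenase Adh4 (-0.79 ± 0.12). Groups were separate for Aldh3a2, Cyp4f14 and Adh4.

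Most ketone body genes rose. Of 9 tested, 6 rose and 3 fell, with a median of 0.38. The monocarboxylate transporter Slc16a1 (GRCm38 chromosome 3, 104638668 to 104658462, plus strand) stood at 48.8 to 129.6 CPM (median 70.7) in vehicle and 258 to 402 CPM (median 318) in WY livers, without overlap, and changed by 2.04 ± 0.23. The genes that fell were Bdh2 (-0.71 ± 0.17), the transporter Slc16a7 (-0.43 ± 0.12) and Oxct1, the enzyme of ketone use in other tissues (-0.32 ± 0.13, at a vehicle median of 8.98 CPM). The Oxct1 call was lost without vehicle animals 30, 35 or 38 or WY animals 2 or 5, left out in turn (highest adjusted p = 0.128), without the 5 libraries that stood apart (0.0890) and with the HZ libraries alone (0.103).

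Fatty acid uptake and activation rose in part. Of 27 tested genes 15 rose and 6 fell, with a median of 0.52 and changes from -1.81 to 1.78. The genes that fell are not reported here one by one. Fabp1, the main fatty acid binding protein of hepatocytes, stood at 2937 to 7377 CPM (median 6472) in vehicle and 9218 to 12467 CPM (median 11346) in WY livers, with vehicle animal 38 lowest, and changed by 0.87 ± 0.12. Acsl1, the main long chain acyl-CoA synthetase, stood at 1224 to 5026 CPM (median 2049) and 5745 to 6500.2 CPM (median 5983) (change 1.35 ± 0.24). The transport proteins Slc27a1 (1.76 ± 0.15) and Slc27a4 (0.97 ± 0.07) rose as well, and neither overlapped between groups. Cd36, a membrane receptor of fatty acids, stood at 52.3 to 96.3 CPM (median 59.6) and 46.8 to 237 CPM (median 163): WY animals 5 and 17 were within or below the vehicle range while the other 5 were above it, and the change was 1.12 ± 0.34 (adjusted p = 0.00661), which did not pass with limma voom (0.83, adjusted p = 0.0541).

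Lipid droplet genes rose on both sides of storage and release. Of 28 tested, 15 rose, 12 of them at least 2-fold, and 6 fell, with a median of 0.78. G0s2, which blocks the lipase ATGL (GRCm38 chromosome 1, 193272161 to 193273217, minus strand), stood at 12.1 to 61.7 CPM (median 38.1) in vehicle and 229.6 to 874 CPM (median 475) in WY livers and changed by 3.88 ± 0.46. Cidec, a protein of droplet fusion (GRCm38 chromosome 6, 113424634 to 113435760, minus strand), stood at 1.47 to 4.60 CPM (median 2.15) and 21.3 to 57.2 CPM (median 30.1) and changed by 3.54 ± 0.29. Plin5, which ties droplets to mitochondria, stood at 28.4 to 88.7 CPM (median 44.6) and 154 to 231 CPM (median 195) and changed by 2.00 ± 0.22. None of these overlapped. On the side of release, Pnpla2, which encodes ATGL, changed by 1.20 ± 0.12, its activator Abhd5 by 0.99 ± 0.13, and the monoglyceride lipase Mgll by 2.24 ± 0.17. Mgll stood at 148 to 449 CPM (median 298) and 1189 to 1571 CPM (median 1478). Fitm2, a factor of droplet budding (1.82 ± 0.16), and the droplet dehydrogenase Hsd17b11 (1.54 ± 0.10) rose too.

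Of 22 genes of synthesis and desaturation 11 rose and 3 fell, with a median of 0.37. Me1, the malic enzyme that supplies NADPH, stood at 91.1 to 211 CPM (median 158) in vehicle and 348 to 639.5 CPM (median 440.5) in WY livers (change 1.59 ± 0.23). The elongase Elovl3 (1.66 ± 0.35) and the mitochondrial acetyl-CoA carboxylase Acacb (1.66 ± 0.27) rose, as did the transcription factor Srebf1 (0.94 ± 0.21). Fasn stood at 261 to 872 CPM (median 324) and 398 to 1156 CPM (median 639.6); its change of 0.80 ± 0.27 (adjusted p = 0.0152) did not pass without WY animal 18 (0.63, adjusted p = 0.0504). Scd1, the desaturase, was at 0.68 ± 0.41 (adjusted p = 0.161), and at 1.00 (adjusted p = 0.0384) without vehicle animal 30. Thrsp, a lipogenic nuclear protein, was at -1.12 ± 0.51 (adjusted p = 0.0643). It passed with DESeq2 (-1.13, adjusted p = 0.0398) and limma voom (-1.70, adjusted p = 0.00967), and without WY animal 18 (-1.56, adjusted p = 0.0108) or 21 (-1.32, adjusted p = 0.0376). The genes that fell were Acly (-0.64 ± 0.23, and -0.48 with adjusted p = 0.117 without the 5 libraries that stood apart), the elongase Elovl2 (-0.94 ± 0.14) and the pyruvate kinase Pklr (-0.59 ± 0.16).

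Of 14 triglyceride synthesis genes 10 rose and 2 fell, with a median of 0.61. Mogat1, a monoacylglycerol acyltransferase (GRCm38 chromosome 1, 78510991 to 78538173, plus strand), stood at 1.61 to 6.33 CPM (median 3.61) in vehicle and 18.8 to 35 CPM (median 27.4) in WY livers and changed by 2.78 ± 0.31. Agpat9, the glycerol-3-phosphate acyltransferase now called Gpat3, changed by 1.20 ± 0.14, and the last enzyme diverged, with Dgat1 at 0.68 ± 0.07 and Dgat2 at -0.56 ± 0.11. Lpin1, a phosphatidate phosphatase that also acts with PPARα and PGC-1α in the nucleus (GRCm38 chromosome 12, 16535669 to 16610966, minus strand), was the other gene that fell. It stood at 452 to 857 CPM (median 593) and 35.4 to 139 CPM (median 90.1), each WY liver below each vehicle liver, and fell by 3.04 ± 0.42 (adjusted p = 1.32e-06).

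The receptor itself did not pass the test, and its coactivator PGC-1α fell. Of 18 PPAR, RXR and coregulator genes 5 rose (among them Ppard, Rxrb, Rxrg and Nrip1) and 8 fell, with a median of -0.07. Ppara stood at 366 to 533 CPM (median 449.5) in vehicle and 389.6 to 566 CPM (median 467) in WY livers and was at 0.14 ± 0.09 (adjusted p = 0.226). Rxra was at -0.10 ± 0.08 (adjusted p = 0.274). Ppargc1a, which encodes PGC-1α (GRCm38 chromosome 5, 51454250 to 51567726, minus strand), stood at 16 to 30.9 CPM (median 18.1) and 3.17 to 6.71 CPM (median 4.61) without overlap and fell by 2.17 ± 0.26.

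With unnamed gene models and genes under a mean of 5 CPM left aside, the 15 largest rises hold Pdk4, Acot1, Acot2, Acot3, Plin2, G0s2 and Cidec, given above, and 8 others. Cpne5, a calcium-dependent membrane binding protein (GRCm38 chromosome 17, 29155556 to 29238167, minus strand), stood at 0 to 2.35 CPM (median 0.296) in vehicle and 24.6 to 66.2 CPM (median 35.9) in WY livers and changed by 5.84 ± 0.58, or by 6.68 without vehicle animal 71, the highest of its group. Lamb3, a laminin chain (GRCm38 chromosome 1, 193207699 to 193343878, plus strand), stood at 3.79 to 43 CPM (median 12.4) and 142 to 241 CPM (median 179) and changed by 3.53 ± 0.38. Cbfa2t3, a transcriptional corepressor (GRCm38 chromosome 8, 122625141 to 122699109, minus strand), stood at 3.17 to 8.99 CPM (median 3.84) and 53.3 to 81.8 CPM (median 62.1) and changed by 3.84 ± 0.32. All WY livers were above all vehicle livers in these genes, as they were in each of the 15 largest rises. The others were the metalloprotease Adamts15 (4.13 ± 0.44), the matrix protein Spon2 (3.62 ± 0.31), the calsyntenin Clstn3 (3.60 ± 0.38), the muscle fructose bisphosphatase Fbp2 (3.32 ± 0.31) and the keratin Krt23 (3.18 ± 0.35). Being the largest, these 15 were chosen by their change.

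Several of the 15 largest falls rested on a single vehicle animal. Mt2, a metallothionein (GRCm38 chromosome 8, 94172664 to 94173568, plus strand), stood at 6.64 to 998 CPM (median 7.82) in vehicle and 2.84 to 8.76 CPM (median 4.69) in WY livers: vehicle animal 30 alone had the highest value, and the other 6 were at or below 23 CPM. The change of -4.84 ± 1.17 was -0.91 without that animal (adjusted p = 0.189) and -1.39 without the 5 libraries that stood apart (adjusted p = 0.147). Mt1 went from -3.27 ± 0.91 to -0.39 (adjusted p = 0.515) without animal 30, and to -0.56 (adjusted p = 0.475) without the 5 libraries. Cyp2d12 rested on vehicle animal 38, at 116 CPM against a group median of 0.805, and its value of -4.64 ± 1.19 was -0.07 without that animal (adjusted p = 0.928). Without WY animal 21 the value was -5.82, and without the 5 libraries -1.26. Rragd, a GTPase of amino acid sensing, had 82.3 CPM in animal 38 and a median of 3.42, and its value of -2.53 ± 0.65 was -0.44 without it and -0.69 without the 5 libraries. The chemokine Cxcl1 moved from -3.20 ± 0.80 to -1.97 without animal 30 and -2.24 without the 5 libraries, and the neurotrophin receptor Ntrk2 from -3.17 ± 0.80 to -1.64 without animal 38 and to -1.82 (adjusted p = 0.0517) without the 5 libraries.

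Another 8 of the 15 falls did not overlap between groups. Upp2, a uridine phosphorylase of liver (GRCm38 chromosome 2, 58567298 to 58792971, plus strand), stood at 156 to 475 CPM (median 370.1) in vehicle and 4.24 to 41.6 CPM (median 17.1) in WY livers and fell by 3.95 ± 0.59 (adjusted p = 3.63e-06). Rgs16, a regulator of G protein signalling (GRCm38 chromosome 1, 153740349 to 153745468, plus strand), stood at 44.4 to 92.3 CPM (median 73.2) and 1.96 to 8.07 CPM (median 5.94) and fell by 3.70 ± 0.54. Zbtb16, a zinc finger transcription factor (GRCm38 chromosome 9, 48654297 to 48836222, minus strand), stood at 23.3 to 106 CPM (median 71.9) and 3.98 to 9.40 CPM (median 5.45) and fell by 3.52 ± 0.52. In each of these the highest WY liver was below the lowest vehicle liver. The others were Lpin1, the uptake transporter Slco1a4 (-2.98 ± 0.32), the kinase Map2k6 (-2.73 ± 0.32), the membrane protein Tmc7 (-2.66 ± 0.43) and the steroid dehydrogenase Hsd3b2 (-2.57 ± 0.30). Rian, a noncoding RNA of an imprinted cluster, fell by 2.56 ± 0.36 with overlap between the groups.

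**Figure D3:**
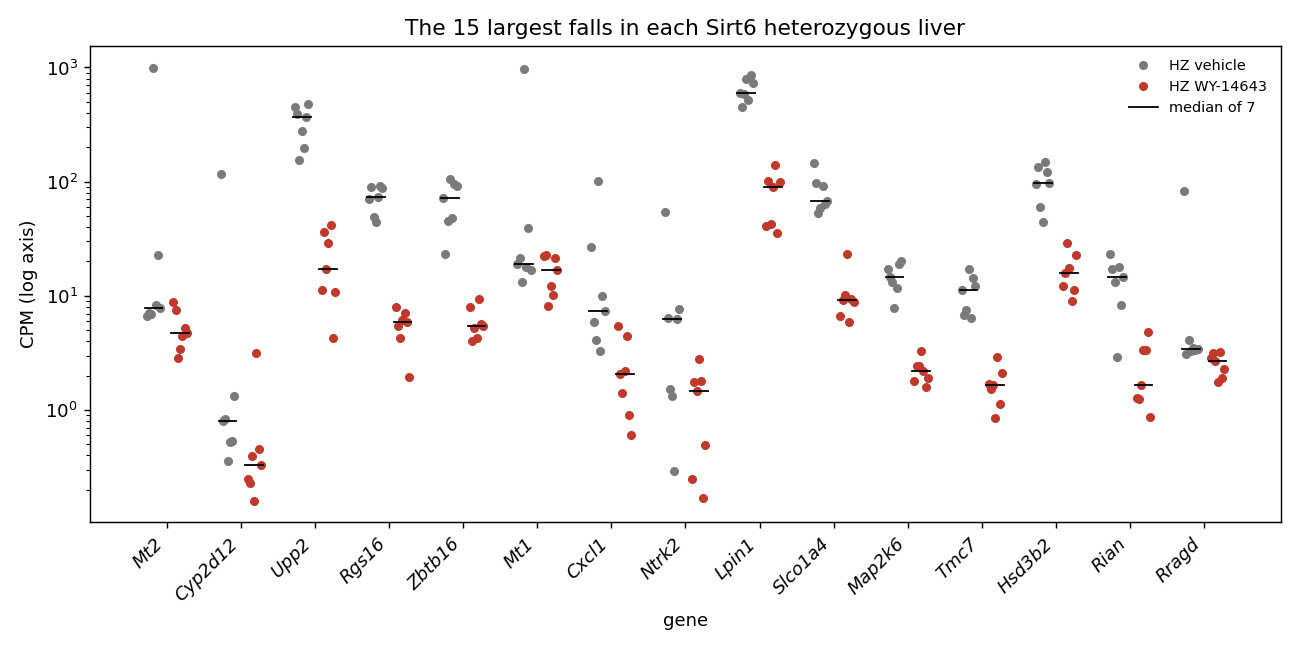
CPM (log axis) of the 15 largest falls in each HZ liver, 7 with vehicle (grey) and 7 with WY-14643 (red), with black bars for the medians. Mt2, Mt1, Cyp2d12 and Rragd show 1 vehicle liver far above the other 6, while Upp2, Rgs16, Zbtb16 and Lpin1 separate the treatments in each animal.

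Most genes of nitrogen disposal fell. Of 11 urea cycle and ammonia genes 9 fell and 0 rose in edgeR (0 at an unadjusted p under 0.05, 0 in DESeq2 and 0 in limma voom). The median was -0.50, and 5 did not overlap. Cps1, which brings ammonia into the cycle (GRCm38 chromosome 1, 67123026 to 67231259, plus strand), stood at 2194 to 4350.1 CPM (median 2693) in vehicle and 379.6 to 1024 CPM (median 748) in WY livers and fell by 1.95 ± 0.17 (adjusted p = 2.83e-10). Gls2, the liver glutaminase, stood at 212 to 373 CPM (median 263) and 79.5 to 145 CPM (median 101) and fell by 1.35 ± 0.14. Asl (-0.92 ± 0.11) and Otc (-0.78 ± 0.10) fell as well, and none of the 4 overlapped. Of 39 genes of amino acid breakdown 28 fell and 5 rose (Got2, Sdsl, Bckdhb, Ddc and Bckdk), with a median of -0.35. Got1 (-1.87 ± 0.24), Tat (-1.15 ± 0.24) and Prodh (-1.15 ± 0.14) fell, each without overlap. Bckdk, the kinase that restrains breakdown of branched chain amino acids, changed by 0.65 ± 0.11.

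Glucose genes moved both ways. Of 29 tested, 7 rose and 11 fell, with a median of -0.17. Over all genes tested 29.3% rose and 26.4% fell, with a median of 0.01. Pck1, a control point of gluconeogenesis (GRCm38 chromosome 2, 173153048 to 173159273, plus strand), stood at 2387 to 3203 CPM (median 3095) in vehicle and 366 to 1335 CPM (median 885) in WY livers, without overlap, and fell by 1.77 ± 0.29. G6pc, the last enzyme of glucose release, was at 0.24 ± 0.27 (adjusted p = 0.470). Ugp2, which makes the glucose donor for glycogen, fell by 1.70 ± 0.13 and the glucose transporter Slc2a2 by 0.86 ± 0.11, while Gpd1, the cytosolic glycerol-3-phosphate dehydrogenase, rose by 1.09 ± 0.13.

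Of 24 cholesterol genes 5 fell and 1 rose, with a median of -0.14, or 0.02 without the 5 libraries that stood apart. Those that fell include Sc4mol (-0.90 ± 0.23), Stard4 (-0.75 ± 0.11), Insig1 (-0.74 ± 0.18) and Sc5d (-0.70 ± 0.23, and -0.56 with adjusted p = 0.0938 without the 5 libraries that stood apart), and the 1 that rose was Hsd17b7 (0.56 ± 0.17). Of 21 bile acid genes 14 fell and 3 rose, with a median of -0.32. Among the uptake carriers, Slco1b2 stood at 1759 to 2434 CPM (median 2179) in vehicle and 628 to 1019.5 CPM (median 799) in WY livers and fell by 1.38 ± 0.12, and Slco1a1 fell by 1.43 ± 0.14. Akr1d1, the reductase of the steroid ring (-2.01 ± 0.22), and Nr0b2, which encodes the repressor SHP (-0.67 ± 0.22), fell too. Cyp7a1, the rate-limiting enzyme of bile acid synthesis, ranged over 79.3 to 448 CPM (median 194) and 66.2 to 386 CPM (median 273) and was at 0.00 ± 0.48 (adjusted p = 0.996); Cyp8b1 was at 0.08 ± 0.27 (adjusted p = 0.815). The 3 that rose were Abcb4, the canalicular phospholipid exporter (0.74 ± 0.12), Abcc4 (0.52 ± 0.18; adjusted p = 0.0586 without the 5 libraries) and Hsd3b7 (0.18 ± 0.07). The Hsd3b7 call was lost without vehicle animals 30 or 38 or WY animals 2, 5 or 17, left out in turn (highest adjusted p = 0.0714).

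Of 35 drug-metabolising P450 genes 24 fell and 0 rose in edgeR (0 at an unadjusted p under 0.05, 0 in DESeq2 and 0 in limma voom). The median was -0.76, and 11 did not overlap. Cyp2e1 (GRCm38 chromosome 7, 140763739 to 140774987, plus strand), among the most abundant, stood at 8397 to 10609 CPM (median 8762) in vehicle and 4621 to 6286 CPM (median 5197) in WY livers and fell by 0.75 ± 0.10. Cyp2c29 stood at 1374 to 1989 CPM (median 1758) and 554 to 1242 CPM (median 880.3) and fell by 0.95 ± 0.14. Cyp2b10, a marker of the receptor CAR, stood at 1.76 to 14.9 CPM (median 7.16) and 0 to 1.56 CPM (median 0.913) and fell by 2.90 ± 0.60. These 3 did not overlap. Cyp3a11 (-1.03 ± 0.28) and Cyp1a2 (-0.71 ± 0.12) fell with overlapping groups, and Cyp2a5 fell by 2.22 ± 0.46, or by 1.58 without vehicle animal 38 and 1.43 without the 5 libraries that stood apart. Neither receptor was called with all libraries: Nr1i3 (CAR) was at 0.15 ± 0.13 (adjusted p = 0.344) and Nr1i2 (PXR) at -0.11 ± 0.08 (adjusted p = 0.268). Without the 5 libraries that stood apart Nr1i2 was at -0.26 (adjusted p = 0.0235). Of 39 conjugating enzymes 18 fell and 6 rose, among them the sulfotransferase Sult1d1 (-1.52 ± 0.18) and, upward, the glutathione transferase Gstt2 (1.04 ± 0.08).

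Of 42 complement and coagulation genes 28 fell and 0 rose in edgeR (0 at an unadjusted p under 0.05, 0 in DESeq2 and 1 in limma voom). The median was -0.54, and 17 did not overlap. Prekallikrein, Klkb1 (GRCm38 chromosome 8, 45266689 to 45294859, minus strand), stood at 240.0 to 312 CPM (median 284) in vehicle and 89.4 to 128 CPM (median 107) in WY livers and fell by 1.36 ± 0.08; factor V, F5, fell by 0.88 ± 0.09 and heparin cofactor, Serpind1, by 0.86 ± 0.08. Of 26 acute phase genes and metallothioneins 9 fell and 0 rose in edgeR (0 at an unadjusted p under 0.05, 1 in DESeq2 and 1 in limma voom). The median was -0.48, and 7 (without vehicle animal 30) to 13 (without WY animal 14) fell with single libraries left out. Crp stood at 318 to 496 CPM (median 399) and 155 to 205 CPM (median 174) and fell by 1.24 ± 0.10, Saa4 fell by 1.95 ± 0.25 and Serpina3n by 1.69 ± 0.22, each without overlap. The inducible Saa1 and Saa2 varied by animal: Saa1 stood at 29.8 to 3436 CPM (median 38.1) and 15.4 to 844 CPM (median 184), highest in vehicle animal 30. Its value was -1.24 ± 1.03 (adjusted p = 0.320), and 1.93 (adjusted p = 0.0355) without that animal. Saa2 stood at 2751 CPM in vehicle animal 30 and at 9.70 to 47.0 CPM in the other vehicle livers. In WY livers it stood at 60.3 to 324 CPM in animals 5, 14, 15 and 21, and at 4.81 to 10.4 CPM in animals 2, 17 and 18. The Saa2 value was -2.36 ± 1.15 (adjusted p = 0.0840), 1.74 with DESeq2 (adjusted p = 0.0183) and -3.37 without WY animal 14 (adjusted p = 0.0238). Both negative values include vehicle animal 30, and the value without that animal is not given. Hepatocyte identity genes fell in the same animals, 13 of 21 with 3 higher (Foxa1, Foxa2 and Prox1) and a median of -0.36, the plasma protein gene Ahsg by 0.99 ± 0.10 and albumin, Alb, by 0.50 ± 0.13. In bulk RNA fewer hepatocytes and less of these RNAs per hepatocyte cannot be told apart.

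Of 21 sex-biased liver genes 14 fell and 3 rose, with a median of -0.53. Hsd3b5, a steroid dehydrogenase of male liver, stood at 80.3 to 265 CPM (median 179.7) in vehicle and 14.7 to 99.5 CPM (median 41.4) in WY livers and fell by 1.80 ± 0.34, and the major urinary protein gene Mup21 fell by 1.10 ± 0.32, both with overlap. The 3 that rose were Acot3, Elovl3 and Abcd2 (1.02 ± 0.43, adjusted p = 0.0482), which are also in lipid lists; Abcd2 was lost without vehicle animals 30, 35, 36, 38 or 71 or WY animals 2, 15, 17 or 18, left out in turn (highest adjusted p = 0.0972), and without the 5 libraries that stood apart (0.0929). Of 23 genes of the growth hormone and insulin axis 9 fell and 3 rose (Akt2, Fgf21 and Stat5a), with Ghr, the growth hormone receptor, at -0.88 ± 0.08 and Stat5a at 1.49 ± 0.16.

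Most clock genes fell. Of 19 tested, 13 fell and 1 rose, with a median of -0.70, and 7 did not overlap. Dbp, an output gene of the clock (GRCm38 chromosome 7, 45705088 to 45710203, plus strand), stood at 12.7 to 59.1 CPM (median 45.8) in vehicle and 2.26 to 23.6 CPM (median 12.3) in WY livers; vehicle animal 71 was within the WY range and the other 6 were above it, and the change was -1.89 ± 0.50. Per1 stood at 24 to 35.8 CPM (median 31.1) and 4.02 to 15.6 CPM (median 7.68) and fell by 1.72 ± 0.40, and Per2 fell by 1.17 ± 0.23, both without overlap. Tef (-1.23 ± 0.23), Nr1d1 (-0.35 ± 0.11) and the repressor Gm129, now called Ciart (-2.85 ± 0.65), fell as well. Npas2, a partner in the positive limb, stood at 0.118 to 1.46 CPM (median 0.415) and 0.569 to 4.58 CPM (median 2.09) and rose by 2.10 ± 0.53, with overlap, while Arntl was at 0.57 ± 0.45 (adjusted p = 0.286). The labels state no time of collection, and its part in these values was not tested.

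**Figure D4:**
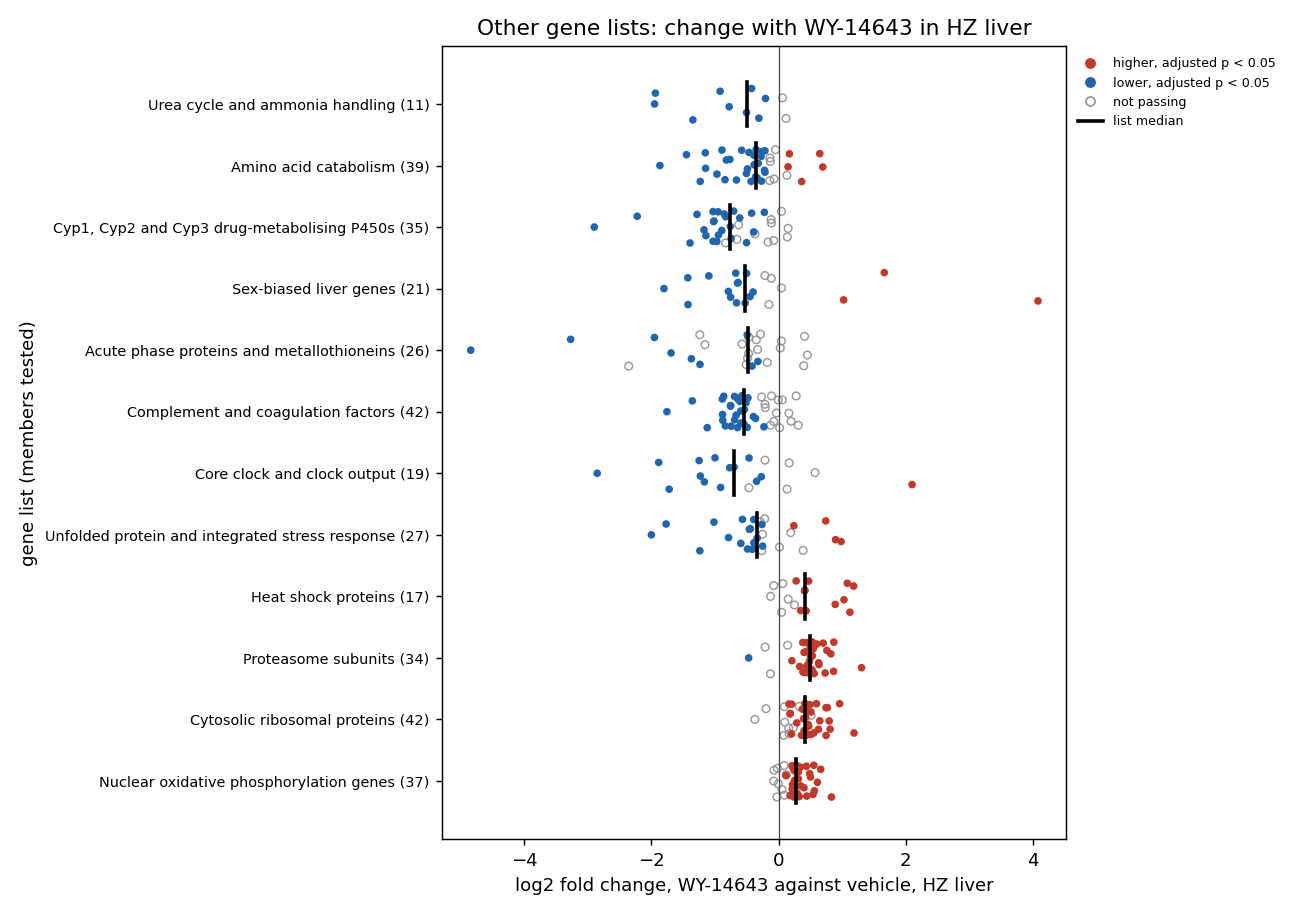
Log2 fold change with WY-14643 in HZ liver of each tested member of 12 further gene lists (members tested in brackets), filled where the adjusted p is below 0.05, with a black bar at the list median. Urea cycle, P450, complement and clock lists have medians below 0, and proteasome, ribosome and respiratory chain lists have medians of 0.50, 0.42 and 0.27.

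Most genes of the proteasome, the ribosome and the respiratory chain rose. Of 34 proteasome subunits 30 rose and 1 fell (Psmb9, a subunit of the immunoproteasome), with a median of 0.50 and 21 without overlap. Psmd4, the ubiquitin receptor of the cap, stood at 74.8 to 116 CPM (median 102) in vehicle and 200.1 to 309.7 CPM (median 245) in WY livers and changed by 1.30 ± 0.09. Of 42 ribosomal protein genes 31 rose and 0 fell in edgeR (0 at an unadjusted p under 0.05, 0 in DESeq2 and 0 in limma voom). The median was 0.42, with Rps9 at 0.60 ± 0.06, and many of these genes have pseudogene copies that make their counts uncertain. Of 37 nuclear genes of oxidative phosphorylation 28 rose and 0 fell in edgeR (0 at an unadjusted p under 0.05, 0 in DESeq2 and 0 in limma voom). The median was 0.27, with the cytochrome gene Cyc1 at 0.55 ± 0.07. With the length trend removed, 29 proteasome genes rose and 1 fell (median 0.37), 26 ribosomal genes rose and 2 fell (0.25), and 20 of 36 respiratory chain genes rose and 4 fell (0.12). Of 23 genes of the citric acid cycle 12 rose and 3 fell (Sucla2, Suclg2 and Fh1).

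Of 27 genes of the unfolded protein and integrated stress response 16 fell and 4 rose (Atf3, Atf4, Atf5 and Creb3l3), with a median of -0.34. Hspa5, the chaperone BiP, stood at 585 to 919 CPM (median 798) in vehicle and 478 to 583 CPM (median 499) in WY livers and fell by 0.57 ± 0.10; Herpud1 fell by 1.24 ± 0.17, Chac1 by 2.00 ± 0.46 and Ddit4, an inhibitor of mTORC1, by 1.77 ± 0.30. Creb3l3, a liver factor of the same family that works with PPARα on Fgf21, rose by 0.98 ± 0.09. Of 17 heat shock genes 11 rose and 0 fell in edgeR (0 at an unadjusted p under 0.05, 0 in DESeq2 and 0 in limma voom), with a median of 0.41. Hsp90aa1 stood at 48.1 to 93.9 CPM (median 73) and 133 to 196 CPM (median 145) without overlap and changed by 1.08 ± 0.13, and Hspb1 changed by 1.03 ± 0.28. Of 23 Nrf2 genes 12 rose and 2 fell (Gclm and Abcc2), with Srxn1 at 1.12 ± 0.12 and Gclm at -0.54 ± 0.06.

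Of 26 cell cycle genes 9 rose and 4 fell (Ccne2, Tk1, Birc5 and E2f1), with a median of 0.17, and 5 rose without vehicle animal 35. Ccnd1, cyclin D1, stood at 17.4 to 51 CPM (median 24.8) in vehicle and 35 to 137 CPM (median 71.9) in WY livers, with 4 WY livers above all vehicle livers, and changed by 1.41 ± 0.38. Myc changed by 1.19 ± 0.39 (adjusted p = 0.0113; 1.00 with adjusted p = 0.136 without the 5 libraries that stood apart). Mki67, a marker of dividing cells, was at -0.15 ± 0.42 (adjusted p = 0.781). Of 16 growth arrest genes 7 rose and 5 fell (Ccng1, Btg2, Trp53inp1, Sesn1 and Sesn2): Gadd45b stood at 0.948 to 2.67 CPM (median 2.25) and 8.32 to 19 CPM (median 15.2) (change 2.84 ± 0.26) and Cdkn1a changed by 2.12 ± 0.37, neither with overlap, while Btg2 fell by 1.23 ± 0.34.

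Of 15 periportal genes 10 fell, and these include Cps1, Gls2 and Pck1 above. Of 17 pericentral genes 6 fell and 4 rose (Axin2, Tbx3, Rnf43 and Sp5), with a median of -0.10. Over all genes tested 26.4% fell and 29.3% rose, with a median of 0.01. The Wnt target Axin2 (GRCm38 chromosome 11, 108920349 to 108950783, plus strand) stood at 4.03 to 8.26 CPM (median 5.60) in vehicle and 12.9 to 25 CPM (median 17.8) in WY livers and changed by 1.53 ± 0.17, and the transcription factor Tbx3 stood at 15.6 to 37 CPM (median 23.3) and 56.2 to 107 CPM (median 89.5) and changed by 1.74 ± 0.23. Both separated the treatments in each animal. Glul, the glutamine synthetase of the innermost layer, was at 0.12 ± 0.08 (adjusted p = 0.225), and Slc1a2, a glutamate transporter of the same layer, fell by 1.81 ± 0.22. Of 16 macrophage markers 1 fell, Mrc1 (-0.38 ± 0.09), and 0 rose in edgeR (0 at an unadjusted p under 0.05, 0 in DESeq2 and 0 in limma voom). The macrophage list summed to 548 to 1089 CPM in vehicle and 469 to 1207 CPM in WY livers, and the neutrophil list to 7.52 to 34.4 and 6.38 to 32.2 CPM.

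The HZ and WT responses were measured in different animals, and across the 12607 genes their log2 fold changes correlated with r = 0.87, a description over genes that are not independent. Of 809 genes that changed at least 2-fold in HZ, 804 had the same sign in WT and 685 had the larger absolute value in HZ; the 809 were chosen on their HZ values. The test of the difference between the responses called 0 genes in edgeR (0%), with a smallest adjusted p of 0.126. At an unadjusted p under 0.05 there were 1182 genes (9.38%), and DESeq2 called 3 and limma with voom weights 1.

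For the textbook targets the WT median was 1.22 against 2.12 in HZ, and 7 of the 12 differed between genotypes at an unadjusted p under 0.05. The mean log2 CPM over the 12 genes was 8.22 ± 0.64 in HZ vehicle and 9.19 ± 0.62 in WT vehicle livers. Under WY it was 10.57 ± 0.22 and 10.72 ± 0.09 (SD, n = 7). Over genes that rose at least 2-fold in HZ, the median SD of log2 CPM was 0.43 in HZ vehicle and 0.30 in HZ WY, and over genes that fell at least 2-fold 0.39 and 0.41, against 0.20 and 0.18 over all genes.

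The 8 genes with the smallest p of the difference did not pass after adjustment. Dyrk2, a kinase, stood at 19.5 to 31.3 CPM (median 23.8) in HZ vehicle and 28 to 34.3 CPM (median 31.2) in HZ WY livers, a log2 fold change of 0.35 ± 0.09 in HZ and -0.33 ± 0.09 in WT (difference 0.68 ± 0.13, adjusted p = 0.126). The log2 fold change of Proser1 was 0.23 ± 0.07 in HZ and -0.25 ± 0.07 in WT, and for Atxn1, a transcriptional corepressor, it was 0.42 ± 0.16 and -0.67 ± 0.16. In HZ the Atxn1 change lost its call without vehicle animals 34, 36 or 38 or WY animals 2, 5, 14 or 17, left out in turn (highest adjusted p = 0.0751). In Rqcd1, now called Cnot9, the values were 0.46 ± 0.06 and 0.09 ± 0.06. In Loxl4, a lysyl oxidase, they were 1.60 ± 0.30 and -0.30 ± 0.33, and in the ubiquitin ligase Rnf125 0.22 ± 0.18 and -0.90 ± 0.19. In Axin2 they were 1.53 ± 0.17 and 0.52 ± 0.17, and in Pih1d1 0.07 ± 0.07 and 0.49 ± 0.07. In 7 of the 8 the HZ value lay above the WT value, and Pih1d1 was the exception.

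**Figure D5:**
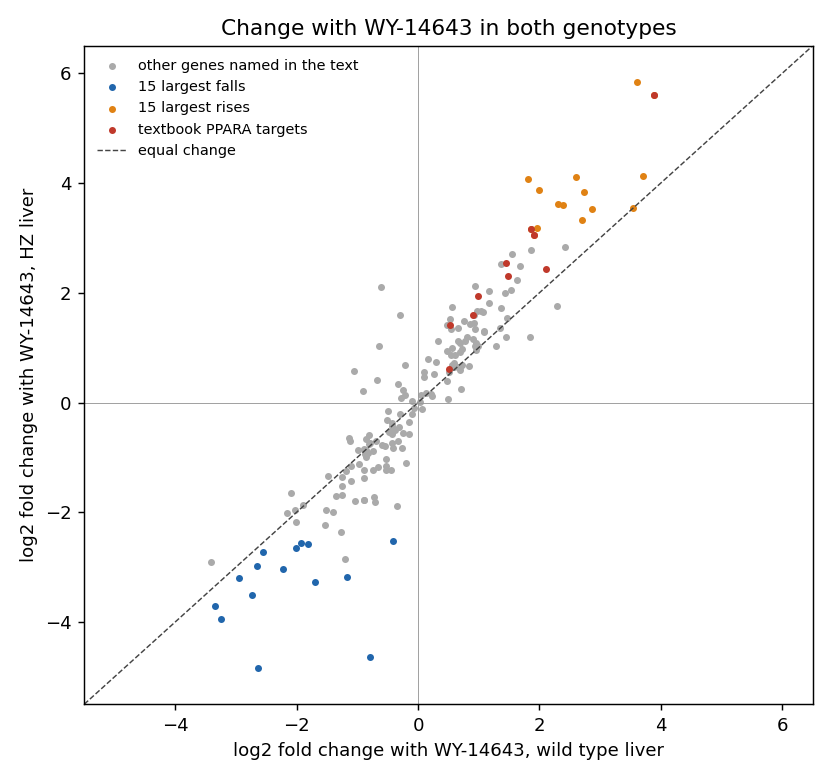
Log2 fold change with WY-14643 in WT liver (x axis) and in HZ liver (y axis), with 10 of the textbook PPARα targets in red, the 15 largest HZ rises in orange, the 15 largest HZ falls in blue and other named genes in grey. Over the whole list of 12 targets the median is 2.12 in HZ and 1.22 in WT; the orange and blue genes were chosen on their HZ values.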

How the data were processed

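Counts of reads per gene in 28 mouse liver libraries were used as the authors deposited them, 1 table per treatment. Per the submitters' processing notes the tools were STAR 2.5.0a, HTSeq 0.6.1p1 and DESeq2 1.18.1, with build mm10, and they name no annotation and no strandedness. Per the labels' protocols, libraries were made from 1 µg of total RNA with the NEBNext Ultra kit. The tables were joined by gene symbol (23393 genes), leaving out HTSeq summary rows and date-like names (0.147 to 0.240% of gene counts in HZ). In HZ libraries reads outside genes were 6.55 to 9.08%, and alignments that were not unique 35.8 to 42.4%. Neither entered the gene counts. Without the latter the levels of genes with close copies are uncertain. In edgeR 4.0.16 (R 4.3.3, limma 3.58.1) all 28 libraries were fitted with filterByExpr, TMM and a robust quasi-likelihood model with 24 residual degrees of freedom, Benjamini-Hochberg adjustment and a threshold of 0.05. CPM used TMM library sizes, with a prior count of 2 for log2 CPM. The scripts were tested on simulated data. Sirt6 was also tested by exact permutation over 3432 splits. Alternatives were DESeq2 1.42.0, its size factors, voom weights, other filters, HZ libraries alone, removal of a length trend and leaving out libraries. Animal numbers are not shared between groups, so no samples were paired.

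Named were Sirt6, textbook targets of PPARα, the 15 genes that rose most and the 15 that fell most with a mean of at least 5 CPM, the 4 passing members of each list with the smallest p, the 8 genes with the smallest p of the difference between genotypes, and list members described one by one. Unnamed gene models (symbols of Gm, LOC, BC, AI or AW plus digits, or ending in Rik) were left out of the ranking of rises and falls. Members of counts of 5 or fewer were named after their values were seen. Some genes that this rule names are not reported here, though list counts and medians include them. The members and lists were chosen with earlier results of these data known. Gene positions and transcript lengths come from GENCODE M21, and promoters come from RefSeq (GRCm38.p6, the assembly behind mm10).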

Additional observations from a re-analysis of the deposited data

Results flagged for a closer look

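In 388 sets of 7 HZ livers (the genes named in the text, each treatment apart), 37 values lay further from the other 6 than Dixon's 95% critical value for 7 samples allows. Chance would flag about 1 in 20 independent sets of normal values. These sets share animals, and some genes were named for a change that rested on 1 animal. The 37 can therefore not be set against that rate. Vehicle animal 30 was the highest of its group in Mt2 at 998 CPM, Mt1 at 974 CPM, Por at 527 CPM, Saa1 at 3436 CPM, Saa2 at 2751 CPM, Serpina3n at 1205 CPM, Nnmt at 136 CPM and Sirt1 at 27.4 CPM. Vehicle animal 38 was the highest of its group in Cyp2d12 at 116 CPM, Rragd at 82.3 CPM and Cyp2a5 at 773 CPM. Vehicle animal 38 was the lowest of its group in Acaa1b at 818 CPM, Acot8 at 14 CPM, Acadvl at 424 CPM, Eci1 at 155 CPM, Fabp1 at 2937 CPM, Sirt5 at 9.86 CPM, Cyc1 at 145 CPM and Gstt2 at 65.2 CPM. Vehicle animal 39 was the highest of its group in Cyp2e1 at 10609 CPM. Vehicle animal 71 was the highest of its group in Angptl4 at 262 CPM, Cbfa2t3 at 8.99 CPM, Clstn3 at 19.6 CPM, Fasn at 872 CPM, Agpat9 at 44.8 CPM, Rnf125 at 65.2 CPM and Hsd17b7 at 390.3 CPM. Vehicle animal 71 was the lowest of its group in Pck1 at 2387 CPM, Dbp at 12.7 CPM and Tef at 119 CPM. WY animal 2 was the highest of its group in Adamts15 at 25.8 CPM and Slc25a20 at 501 CPM. WY animal 2 was the lowest of its group in Cyp2b10 at 0 CPM. WY animal 15 was the highest of its group in Sirt1 at 15.4 CPM. WY animal 18 was the highest of its group in Slco1a4 at 23.2 CPM. WY animal 18 was the lowest of its group in Mgll at 1189 CPM. WY animal 21 was the highest of its group in Cyp2d12 at 3.17 CPM. Vehicle animals 30, 38 and 71 hold most of these values. Results that turn on 1 of them are given with and without it in the report, except Saa2. For Saa2 the value without vehicle animal 30 is not given. Rows whose gene names had been turned into dates were left out of each comparison, and their share of the gene counts was 0.147 to 0.160% in HZ vehicle and 0.224 to 0.240% in HZ WY libraries, so the lowest WY library lay above the vehicle libraries; the genes behind these rows cannot be named, and the difference was not tested.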

How the results depend on the processing

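With other processing the number of genes called by WY in HZ liver moved by over 1.5 times only when a change was tested against a 2-fold difference (edgeR's glmTreat), which called 269 genes, 180 higher and 89 lower. Leaving out each HZ library in turn gave 6658 to 7130 genes, of which 3531 to 3737 were higher and 3127 to 3393 lower. The test of the difference between HZ and WT called 3 genes with DESeq2 and 1 with limma voom weights, and 0 to 1 with single HZ libraries left out (1 without vehicle animal 30 or 71). The direction changed for Saa1, which ranged from -2.09 (without WY animal 14) to 1.93 (adjusted p = 0.0355, without vehicle animal 30) with single libraries left out. It also changed for Saa2, at 1.74 (adjusted p = 0.0183) with DESeq2. Vehicle animal 30 held 2751 CPM of Saa2, and the Saa2 value without that animal is not given. The cause was not tested. Leaving out the 5 libraries that stood apart was chosen after seeing the data and left 3408 genes higher and 3009 lower. Among 194 named genes it ended 10 calls, and single libraries left out ended 11, each given with its value beside the gene; limma voom ended 8, the HZ libraries alone 4 and DESeq2 1. Calls were also gained: 6 with single libraries left out, 3 with limma voom and 1 each with DESeq2, the HZ libraries alone and the 5 libraries left out. No paired analysis was possible because animal numbers are not shared between groups.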

Other observations

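Genes of NAD metabolism and the other sirtuins, which share a cofactor with the product of Sirt6, moved in both directions in HZ liver: of 21 tested 5 rose (Sirt5, Naprt1, Nmnat1, Nadk and Nudt12) and 7 fell, with a median log2 fold change of 0.00. Over all genes tested 29.3% rose and 26.4% fell, with a median of 0.01, so as a list these genes stood near the background. Nampt, which salvages nicotinamide for NAD synthesis, stood at 49.5 to 96.8 CPM (median 75.1) in vehicle and 32.6 to 53.8 CPM (median 37.3) in WY livers and fell by 0.83 ± 0.15. Sirt1, the nuclear deacetylase, stood at 17 to 27.4 CPM (median 18.4) and 12.1 to 15.4 CPM (median 12.7) without overlap and fell by 0.57 ± 0.09, while the mitochondrial Sirt5 rose by 0.64 ± 0.10. Nnmt, which methylates nicotinamide, stood at 8.47 to 136 CPM (median 13) and 1.81 to 23.5 CPM (median 8.25), with vehicle animal 30 highest. Its value of -1.65 ± 0.63 (adjusted p = 0.0279) was -0.30 (adjusted p = 0.608) without that animal, and the call was also lost without WY animals 2, 5 or 17, left out in turn, with limma voom (adjusted p = 0.0957) and with the HZ libraries alone (0.0956).

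Of 26 interferon-stimulated genes 7 fell and 1 rose, Zbp1, with a median of -0.32 in HZ and -0.94 in WT liver. Over all genes tested 26.4% fell and 29.3% rose. In edgeR 3 of the 26 differed between genotypes at an unadjusted p under 0.05, against 9.38% of all genes. The list's mean log2 CPM ranged over 2.28 to 4.23 in WT vehicle and 2.08 to 2.29 in WT WY livers. With single HZ libraries left out the HZ median ranged from -0.54 to -0.26. Of 23 genes of coenzyme A synthesis and breakdown 14 rose and 2 fell (Pank3 and Slc25a16), with a median of 0.34; the thioesterases and Vnn1 given above are among those that rose. Of 5 sex-chromosome transcripts 3 fell, Ddx3y (-0.44 ± 0.07), Kdm5d and Uty.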
